A study of Mus musculus with 16 samples.

Results

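Control neurons at 6 h of KCl were compared with control neurons at 3 h of KCl, the last interval of a 6 h depolarisation series. The comparison rests on 4 of the 16 arrays of the study: the 2 arrays labelled control shRNA and 6 h KCl, and the 2 labelled control shRNA and 3 h KCl. All neurons came from cortices of C57BL/6 mouse embryos at day 16.5 and were grown in culture. On day 5 in vitro every culture received lentivirus for 6 h with polybrene at 6 µg per ml, carrying an shRNA against firefly luciferase in the control arm or an shRNA against c-Fos in the other arm. On day 7 the cultures were silenced and then exposed to KCl for 0, 1, 3 or 6 h, and each of the 8 combinations was measured on 2 arrays. The controls were therefore infected and depolarised cultures, not untouched ones, and the share of neurons that took up virus is not given in the sources used here. The labels number the 2 arrays of a group as biorep 1 and biorep 2. They do not say whether these were separate dissections, so a p-value refers to the scatter between such arrays.

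KCl depolarises the neuronal membrane and lets calcium in through voltage-gated channels, which makes it a standard stand-in for strong synaptic activity. Calcium signals first switch on early-response genes, many of which encode transcription factors such as Fos, Egr and Nr4a proteins. Those factors and CREB, a factor phosphorylated in response to calcium and cyclic AMP, then act on late-response genes, whose products work at synapses, in the extracellular matrix or as secreted peptides. An interval late in a depolarisation shows which late genes were still rising, which early genes were already receding, and which genes lowered at first were coming back.

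Expression was read as the deposited intensity of a probe set, the brightness on a linear scale, and changes are on the scale of log2(intensity + 16). A gene was called at an adjusted p below 0.05 (limma, Benjamini-Hochberg over the 13915 genes tested). The 2 arrays at 6 h correlated at 0.9914 and the 2 at 3 h at 0.9928 across those genes, within the range of 0.9906 to 0.9939 over all groups. Array medians of the deposited intensity lay between 104.75 and 118.56 over the 16 arrays. The markers of neurons were present: all 11 pan-neuronal markers were tested, and their summed intensity was 108824 and 112778 at 6 h, against 107914 and 110728 at 3 h. Microglia were near the detection limit, with 2 of 10 markers bright enough to be tested and a summed intensity of 414 and 434 at 6 h, against 430 and 449 at 3 h.

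Fos, the target of the other arm's shRNA, had intensities of 11960 and 11898 at 6 h, against 13638 and 13308 at 3 h. Both arrays at 6 h lay below both at 3 h, but the difference of −0.18 ± 0.10 (log2, SE) was not called (adjusted p = 0.279). With c-Fos shRNA the same probe set read 3142 and 3340 at 6 h, against 3763 and 4297 at 3 h, below every control array of the same time.

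In control neurons 1106 genes (7.95% of those tested) were higher at 6 h than at 3 h, and 1254 (9.01%) were lower, 2360 in all (17.0%). The changes were mostly modest: the median change of called genes was 0.53 upwards and −0.50 downwards, and 111 genes rose and 69 fell by a log2 change of at least 1. Late-response effectors and zinc-finger genes had shares of rises above that of all genes, and early-response transcription factors, glutamate receptors and mitochondrial ribosomal proteins shares of falls above it, with the counts given for each group. These lists were chosen with earlier results of these data known. With the replicate number as a block in the fit, 2190 genes were called higher and 2531 lower. A fit on the 4 arrays of the comparison alone called 467 higher and 425 lower, and the counts with 1 of the 4 arrays left out ran from 619 to 690 for higher and from 647 to 1029 for lower genes.

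The 25 largest called rises among genes whose arrays at 6 h all lay above those at 3 h ran from 1.38 to 1.96 on the log2 scale. Against 0 h none of these 25 genes was called higher at 1 h, where 2.3% of all genes were. At 3 h 12 were called higher (11.0% of all genes) and 3 lower (19.3%), and at 6 h 24 were called higher (16.7%). The counts at 3 h and 6 h use the arrays on which these genes were chosen. The high count at 6 h therefore follows largely from the choice and is not a finding. The strongest was Hspb3, a small heat shock protein gene. Its intensity was 2426 and 2553 at 6 h, against 622.5 and 602.8 at 3 h, and the 2 arrays at 0 h had read 123.4 and 146.5. The rise was 1.96 ± 0.13 (adjusted p = 2.45e-05), and the pair at 6 h stood far above every earlier array of the control arm.

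Of the 17 matrix and extracellular protease genes tested, 2 (11.8%) were called higher, Acan and Vcan, beside 7.95% of all genes, and Vcan lost its call without all but 1 of the 4 arrays. Acan encodes aggrecan, the core proteoglycan of perineuronal nets, and had intensities of 398.3 and 553.1 at 6 h, against 129 and 119.9 at 3 h (1.85 ± 0.18, adjusted p = 7.36e-05). Sema3e, a secreted semaphorin that guides axons and vessels, read 290.6 and 325.6 at 6 h, against 63.9 and 83.3 at 3 h (1.92 ± 0.24, adjusted p = 0.000298). Fbln5, an elastic fibre protein, read 541.4 and 386.7 at 6 h, against 111.1 and 119.7 at 3 h (1.91 ± 0.22, adjusted p = 0.000176). Separated arrays were part of the rule that named these genes, so their lack of overlap is not a finding. Sema3e was not called at 3 h against 0 h, with a change of 0.09, so its called rise lay between 3 h and 6 h. Tll1, an extracellular metalloprotease of the tolloid family, was alike in this, with 208.1 and 205.3 at 6 h, against 63.3 and 71 at 3 h (1.47 ± 0.21, adjusted p = 0.000593) and a change of 0.17 at 3 h against 0 h. Nppc, the precursor of C-type natriuretic peptide, read 333.3 and 476.2 at 6 h, against 98.1 and 158.9 at 3 h (1.60 ± 0.20, adjusted p = 0.000331). Pnoc, the precursor of nociceptin, read 672.5 and 1022 at 6 h, against 314.2 and 320.8 at 3 h (1.38 ± 0.17, adjusted p = 0.000265).

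Others act inside the cell or at its membrane. Hdac9, a class IIa histone deacetylase that binds MEF2 factors, read 4551 and 4104 at 6 h, against 1442 and 1287 at 3 h (1.63 ± 0.12, adjusted p = 2.54e-05). The related Hdac4 rose as well, to 1571 and 1327 at 6 h, against 895.6 and 893.2 at 3 h (0.68 ± 0.14, adjusted p = 0.00611), though without the first array at 6 h its call was lost (adjusted p = 0.0671). Osbpl3, a lipid-binding protein of the oxysterol-binding family, read 1410 and 1285 at 6 h, against 386.6 and 336.7 at 3 h (1.85 ± 0.14, adjusted p = 2.54e-05). Bves and Popdc3 both encode Popeye-domain proteins, which bind cyclic AMP in the plasma membrane. Bves read 258.9 and 254.4 at 6 h, against 74.6 and 64.5 at 3 h, and Popdc3 read 1127 and 1393 at 6 h, against 444.8 and 487 at 3 h. Both rises passed the test (1.72 ± 0.17 and 1.39 ± 0.23). B3gat2, a glucuronosyltransferase of HNK-1 carbohydrate synthesis, read 312.4 and 254 at 6 h, against 85.9 and 78 at 3 h (1.66 ± 0.23, adjusted p = 0.000593). Map3k5, a stress-activated kinase of the JNK and p38 pathways, read 543.4 and 1077 at 6 h, against 222.1 and 339.1 at 3 h (1.46 ± 0.27, adjusted p = 0.00269). Its second array at 6 h was far above its first, and in a fit on the 4 arrays alone its adjusted p was 0.0549.

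Blnk, an adaptor protein best known from B-cell receptor signalling, read 150.3 and 224.4 at 6 h, against 38.5 and 38.5 at 3 h (1.92 ± 0.22, adjusted p = 0.000172). Its readings at 3 h were near the floor. Its mean log2 over all arrays was 5.92, just above the cut of 5.79 that a gene had to pass to be tested. The high arrays at 6 h are part of that mean, so its place among the largest rises needs caution. Rbpms, with a mean of 5.94, was as close to the cut. The remaining large rises were Rbpms, Cntn3, Sult2b1, Pdlim1, Calhm5, Mir670hg, Esr1, Dennd2c, Calcrl, Sowahb and Slc26a4, between 1.45 and 1.72. The weakest support lay with Sult2b1, a sulfotransferase gene, and Calcrl, which encodes the receptor subunit for CGRP and adrenomedullin. Their adjusted p of 0.0228 and 0.0185 went above the threshold when either array at 6 h or the first array at 3 h was left out, up to 0.16 for Sult2b1 and 0.133 for Calcrl. The plot of the largest changes shows each array of these genes beside the largest falls.

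**Figure D1:**
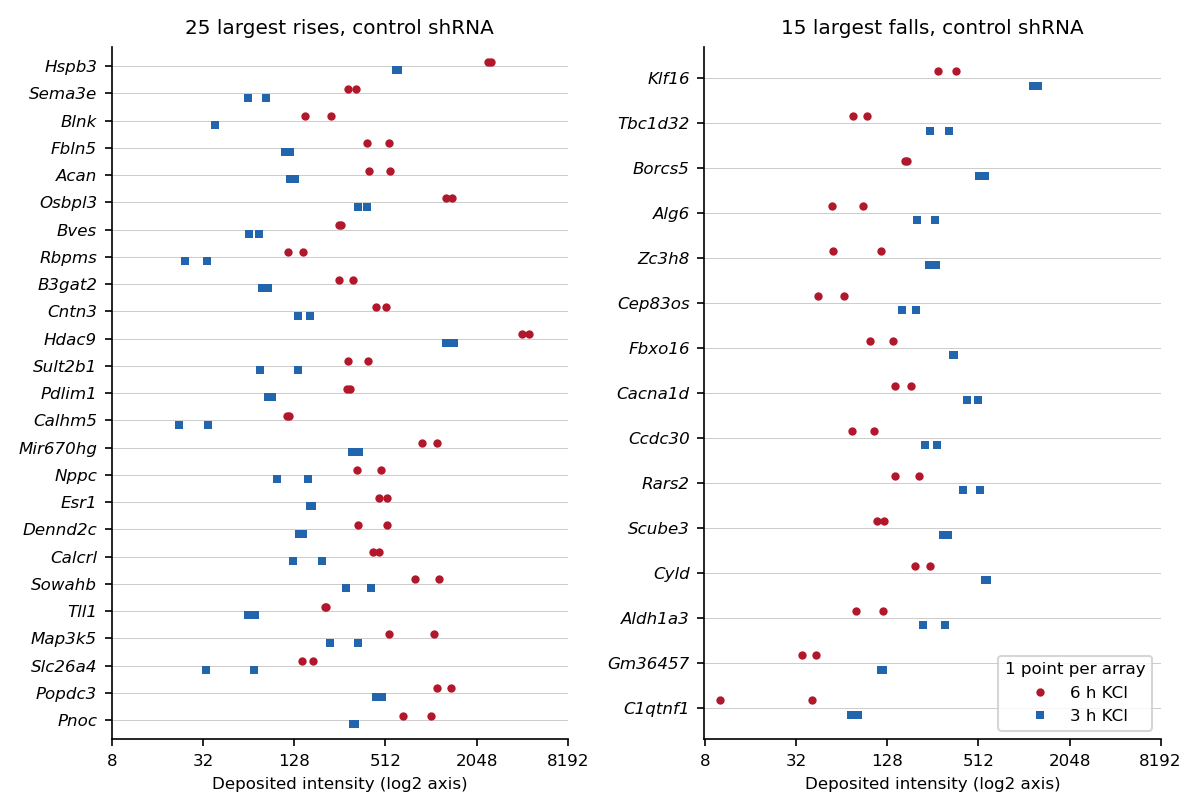
Deposited intensity (log2 axis) in each control shRNA array at 6 h (red circles) and 3 h (blue squares) of KCl, for the 25 largest called rises (left) and the 15 largest called falls (right) among genes chosen to have separated arrays. The changes run from Hspb3, with a log2 change of 1.96, to Pnoc, with 1.38, on the left, and the largest fall on the right is that of Klf16, with −1.84.

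The 15 largest called falls, chosen in the same way, ran from −1.84 to −1.30, and 10 of these genes had already been called lower at 3 h than at 0 h, as were 19.3% of all genes. Klf16, a zinc-finger factor of the Krüppel-like family, was the 1 gene among them that KCl had raised first. It read 278.7 and 362.3 at 6 h, against 1172 and 1260 at 3 h (−1.84 ± 0.15, adjusted p = 2.68e-05), after 956.9 and 825 at 1 h and 382.4 and 435.9 at 0 h. By 6 h it was back near its level before KCl, where the difference from 0 h of −0.27 was not called.

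Most of the other large falls were continuing ones. Borcs5, a subunit of the BORC complex that positions lysosomes, read 172.4 and 167.4 at 6 h, against 570.1 and 514.6 at 3 h (−1.59 ± 0.11, adjusted p = 2.54e-05), after 1045 and 990.8 at 0 h. Cyld, a deubiquitinase that restrains NF-kB signalling, read 194.7 and 244.7 at 6 h, against 567.6 and 580 at 3 h (−1.32 ± 0.13, adjusted p = 6.39e-05). Its other tested probe sets changed by −0.29 and −0.17 and were not called. Rars2, the mitochondrial arginyl-tRNA synthetase, read 143.3 and 207.4 at 6 h, against 403.3 and 524.3 at 3 h (−1.34 ± 0.16, adjusted p = 0.000254). Each had its arrays in the order 6 h below 3 h below 0 h. Separated arrays at 6 h and 3 h were part of the rule that named these genes, and all were called lower at 3 h than at 0 h. The order is therefore not a finding. Cacna1d, the pore subunit of the L-type calcium channel Cav1.3, read 144.4 and 184.2 at 6 h, against 427.4 and 506 at 3 h and 731.8 and 734.8 at 0 h (−1.43 ± 0.20, adjusted p = 0.000662). Another, dimmer probe set of Cacna1d changed by −0.47 and was not called. The others were Tbc1d32, Alg6, Zc3h8, Cep83os, Fbxo16, Ccdc30, Scube3, Aldh1a3, Gm36457 and C1qtnf1. Cep83os and Aldh1a3 lost their call without the first array at 6 h or the second at 3 h (adjusted p up to 0.0743 and 0.141), and C1qtnf1 whenever an array other than the second at 6 h was left out (up to 0.175). When all probe sets of a gene were averaged, Alg6 (adjusted p = 0.0785), Ccdc30 (0.107) and Aldh1a3 (0.192) were not called.

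The genes were then sorted by their state at 3 h against 0 h, a contrast that uses the same 2 arrays at 3 h. Of the 1527 genes called higher at 3 h (11.0% of those tested), 287 were still rising at 6 h and 110 were receding. Of the 2681 genes called lower at 3 h (19.3%), 421 were recovering and 557 were still falling. These are 18.8% and 7.20% of the raised genes and 15.7% and 20.8% of the lowered genes. Of all tested genes 7.95% were higher and 9.01% lower. More of the raised genes thus moved on in the same direction than turned back. Among the lowered genes both shares were above those of all genes. The median change was 0.09 for the raised and −0.02 for the lowered genes, against −0.01 for all tested genes, so the lowered genes as a set hardly shifted. With the replicate block the counts were 703 still rising, 239 receding, 805 recovering and 1259 still falling. Since the 2 contrasts share the arrays at 3 h, the genes were also sorted by the c-Fos arm, whose arrays the comparison does not use. There 1377 genes (9.9%) were called higher and 2546 (18.3%) lower at 3 h than at 0 h, and the shares were 16.6% still rising, 7.55% receding, 15.7% recovering and 22.5% still falling in control neurons. Among the 9707 genes not called at 3 h, 398 were called higher at 6 h than at 3 h and 587 lower, which is 4.10% and 6.05%.

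The median change of the genes still rising against 0 h was 0.09, 0.64 and 1.23 at 1, 3 and 6 h, and 24 of the 287 (8.36%) had been called higher at 1 h, beside 2.3% of all genes. The receding genes' medians were 0.50, 0.75 and 0.34 at the same times, and 63 of the 110 (57.3%) had been called higher at 1 h. At 6 h 62 of the receding genes were still called higher than at 0 h, 45 were not called and 3 were lower, while 16.7% of all genes were higher and 27.4% lower. Recovering genes had medians of −0.19, −0.80 and −0.26. At 6 h 205 of these 421 were still called lower than at 0 h, 196 were not called and 20 were called higher. The genes still falling had medians of −0.10, −0.46 and −1.01. The classes were sorted on the arrays at 0, 3 and 6 h, so these medians and counts are a description. The time courses of the 10 largest changes in each class are plotted.

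**Figure D2:**
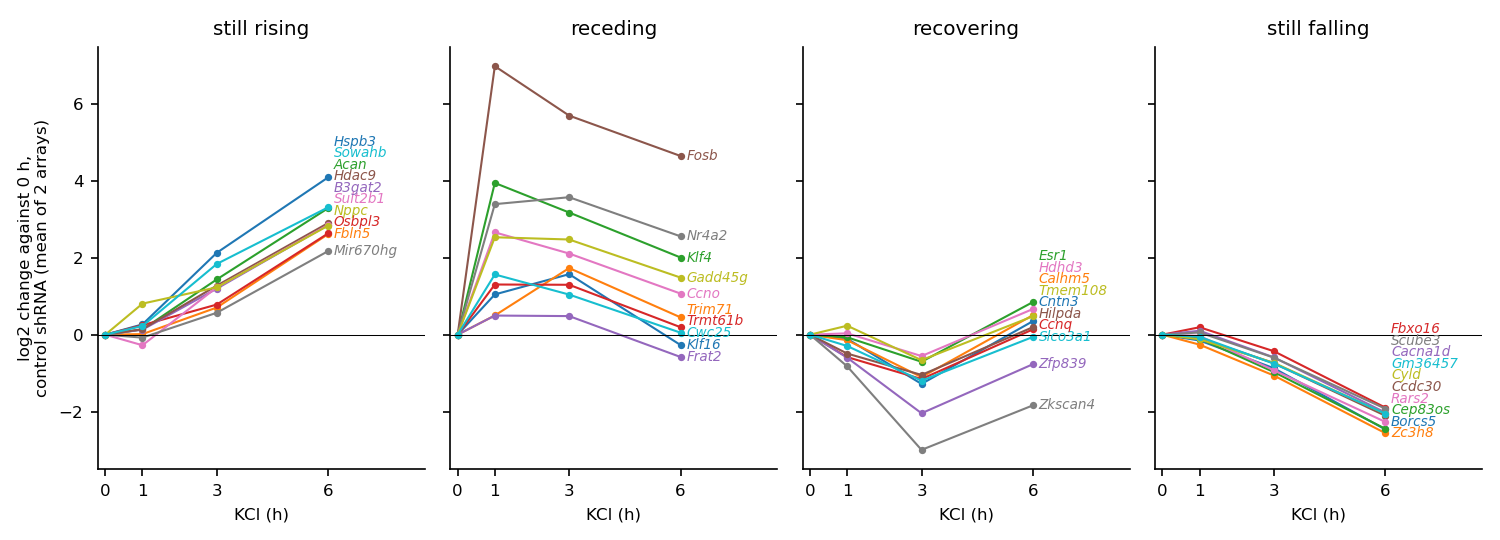
Mean log2 change against 0 h (2 arrays a time) at 0, 1, 3 and 6 h of KCl with control shRNA, for the 10 largest changes between 3 h and 6 h in each class: still rising, receding, recovering and still falling. Hspb3 tops the still rising genes, Fosb is highest at 1 h among the receding ones, and the recovering genes have their lowest point at 3 h.

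Among the recovering genes Cntn3, a neuronal cell adhesion molecule of the contactin family, had the largest rise. It read 444.1 and 513 at 6 h, against 136.7 and 162.7 at 3 h (1.63 ± 0.16, adjusted p = 7.05e-05), and 420 and 371.1 at 0 h, so its level at 6 h was not called different from 0 h. Esr1, the estrogen receptor alpha gene, passed its starting level: it read 527.5 and 462.3 at 6 h, against 162 and 166.6 at 3 h (1.55 ± 0.18, adjusted p = 0.000188), after 273.2 and 295.6 at 0 h, and the change of 0.85 at 6 h against 0 h was called. Tmem108, a transmembrane protein of dendrites and spines, behaved in the same way, with 2366 and 2470 at 6 h, against 1157 and 992.4 at 3 h (1.14 ± 0.12, adjusted p = 0.000115) and 1762 and 1658 at 0 h. Slco3a1, an organic anion transporter, read 2273 and 1962 at 6 h, against 1093 and 811.2 at 3 h (1.14 ± 0.16, adjusted p = 0.000693) and 2408 and 1961 at 0 h. Among its other probe sets, a change of 0.76 was called and a change of −0.03 was not. Hilpda, a lipid droplet protein, read 480.9 and 551.8 at 6 h, against 218.1 and 214.2 at 3 h (1.24 ± 0.11, adjusted p = 3.93e-05) and 492.6 and 457.4 at 0 h. Both were back at their starting level, with differences from 0 h of −0.06 and 0.20 that were not called. The other large recoveries were Calhm5, Ccnq, Zfp839, Hdhd3 and Zkscan4, between 1.16 and 1.61.

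Some early-response transcription factors receded while most were not called. Of the 21 on the list, 18 were called higher at 3 h than at 0 h, and none was higher and 7 (33.3%) were lower at 6 h than at 3 h, beside 9.01% of all genes. The other 14 were not called, and changes ran from −1.17 to 0.55. The median change of the list was −0.27, against −0.01 for all genes tested. At 6 h 16 of the 21 were still called higher than at 0 h. Klf4, a Krüppel-like factor, read 963.2 and 751.1 at 6 h, against 2103 and 1906 at 3 h (−1.17 ± 0.20, adjusted p = 0.00207), after a peak of 3739 and 3152 at 1 h. Fosb, a partner of Jun proteins in AP-1, read 1075 and 635.1 at 6 h, against 1764 and 1798 at 3 h (−1.05 ± 0.22, adjusted p = 0.00561), after 4690 and 4046 at 1 h, and in a fit on the 4 arrays alone its adjusted p was 0.057. Nr4a2, an orphan nuclear receptor, read 4655 and 4735 at 6 h, against 9360 and 9771 at 3 h (−1.02 ± 0.10, adjusted p = 5.42e-05). All of these remained far above 0 h, where Fosb had read 23.1 and 14.

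Egr2, a zinc-finger factor of the Egr family, read 1538 and 1254 at 6 h, against 2589 and 2322 at 3 h (−0.78 ± 0.14, adjusted p = 0.00232). Junb, a subunit of AP-1, read 3502 and 3148 at 6 h, against 5158 and 4621 at 3 h (−0.56 ± 0.08, adjusted p = 0.00071). Atf3, a stress-inducible bZIP factor, read 1060 and 947.6 at 6 h, against 1979 and 1686 at 3 h (−0.81 ± 0.19, adjusted p = 0.0114). Srf, the serum response factor that drives many early genes, read 1444 and 1670 at 6 h, against 2171 and 2330 at 3 h (−0.50 ± 0.10, adjusted p = 0.00461). The call of Atf3 was lost without the second array at 6 h or the first at 3 h (adjusted p up to 0.0873), and that of Srf without the first at 6 h (0.0516) or with all its probe sets averaged (0.0839). Others moved little. Npas4, a neuron-specific factor induced by calcium, read 6349 and 5753 at 6 h, against 7199 and 6987 at 3 h, a difference of −0.23 that was called only with the replicate block (adjusted p = 0.111 without it and 0.0398 with it). Egr1 read 2288 and 2473 at 6 h, against 3374 and 2861 at 3 h (−0.37, adjusted p = 0.261). Nr4a1, with a change of −0.04, and Jun, with −0.14, were not called.

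The early-response signalling and effector genes went both ways, with 4 of 20 higher and 4 of 20 lower at 6 h. Of the higher ones 1 was left without the first array at 6 h or either array at 3 h, and 2 of the lower ones without the second at 3 h. Ccn2, a matricellular growth factor-binding protein, read 1965 and 2056 at 6 h, against 1013 and 1001 at 3 h (0.97 ± 0.15, adjusted p = 0.00108). Gadd45b, a stress- and activity-induced gene linked to DNA demethylation, read 311 and 372.6 at 6 h, against 609.6 and 726.9 at 3 h (−0.91 ± 0.14, adjusted p = 0.00128). Its relative Gadd45g also fell, by 0.99 on the log2 scale, a call lost without the first array at 6 h or the second at 3 h (adjusted p up to 0.133). Ppp1r15a, which brings protein phosphatase 1 to eIF2 alpha, fell by 0.57 (adjusted p = 0.00133). Arc, whose product removes AMPA receptors from synapses, had passed its peak before 3 h: it read 190.4 and 210 at 6 h, against 257 and 263 at 3 h, after 1816 and 2069 at 1 h, and the change of −0.34 was not called (adjusted p = 0.257).

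Late activity-induced effectors were the counterpart. Of 17 tested, 6 (35.3%) were called higher at 6 h than at 3 h, none was lower, and the median change was 0.61, while 7.95% of all genes were higher. The list was chosen with earlier results of these data known, so its share is a description and not an independent result. At 3 h 15 of the 17 had already been above 0 h. Beside Hspb3 and Acan the 6 were Rasgrp1, Cartpt, Pcsk1 and Nptx2. Pcsk1, the protease that cleaves prohormones in secretory granules, read 2823 and 3213 at 6 h, against 1469 and 1487 at 3 h (1.01 ± 0.15, adjusted p = 0.0008), after 71.9 and 87.4 at 0 h. Nptx2, a secreted pentraxin that clusters AMPA receptors, read 3275 and 3827 at 6 h, against 1716 and 1926 at 3 h (0.94 ± 0.18, adjusted p = 0.00341). Rasgrp1, a Ras activator that responds to calcium and diacylglycerol, read 1743 and 1658 at 6 h, against 753.7 and 736.1 at 3 h (1.17 ± 0.19, adjusted p = 0.00139). In each of them the lower array at 6 h was well above the higher array at 3 h. Cartpt, the precursor of the CART peptide, read 356.6 and 758 at 6 h, against 185.9 and 281.3 at 3 h (1.17 ± 0.34, adjusted p = 0.0347). Its call was lost without the second array at 6 h or either array at 3 h (adjusted p up to 0.269).

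With the replicate number as a block 13 of the 17 late effectors were called higher. Bdnf, the neurotrophin that strengthens synapses, read 6396 and 7170 at 6 h, against 3913 and 4428 at 3 h and 90.7 and 144.7 at 0 h. Its rise of 0.70 ± 0.23 had an adjusted p of 0.0549 without the block and 0.000427 with it. Nrn1, a GPI-anchored neurite growth factor, read 4568 and 4957 at 6 h, against 3759 and 3559 at 3 h (0.37, adjusted p = 0.0504 without the block and 0.0032 with it). Crh, the corticotropin-releasing hormone gene, differed strongly between the 2 arrays of each time, with 438.9 and 920.9 at 6 h, against 137.7 and 373.7 at 3 h. Its change of 1.46 ± 0.55 had an adjusted p of 0.0926, and 3.28e-05 with the block. Vgf and Scg2, granin-family cargo of dense-core vesicles, each differed by 0.19. Their adjusted p was 0.0566 and 0.065, and 0.0171 and 0.00116 with the block. Kcna1, a potassium channel subunit, and Serpinb2, a protease inhibitor, were called only with the block (adjusted p = 0.0197 and 0.0423), as was Timp1, a metalloprotease inhibitor, which was lower (−0.62, adjusted p = 0.0226). Inhba, Gpr3 and Plat were called in neither fit.

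CREB binds the palindromic cyclic AMP response element TGACGTCA, and the 250 bases before the start site of each gene were searched for it in RefSeq promoter windows (GRCm38.p6). The windows below are those of the late effectors that hold it, printed because these genes are on the list of late effectors. Pcsk1 and Cartpt were called higher at 6 h than at 3 h, and Scg2 was called only with the replicate block. Capitals mark the element, which begins 78, 112 and 68 bases before the start site of Pcsk1 (chr13:75089607-75089856, plus strand), Cartpt (chr13:99900684-99900933, minus strand) and Scg2 (chr1:79440027-79440276, minus strand).
Pcsk1: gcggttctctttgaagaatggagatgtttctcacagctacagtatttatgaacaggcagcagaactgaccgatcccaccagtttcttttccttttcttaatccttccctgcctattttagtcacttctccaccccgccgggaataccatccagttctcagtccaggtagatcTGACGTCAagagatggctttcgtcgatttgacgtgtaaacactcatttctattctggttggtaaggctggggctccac
Cartpt: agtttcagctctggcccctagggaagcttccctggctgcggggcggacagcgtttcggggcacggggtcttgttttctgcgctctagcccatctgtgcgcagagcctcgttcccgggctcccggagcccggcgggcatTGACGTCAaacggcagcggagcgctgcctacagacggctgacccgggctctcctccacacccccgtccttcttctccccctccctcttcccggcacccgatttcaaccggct
Scg2: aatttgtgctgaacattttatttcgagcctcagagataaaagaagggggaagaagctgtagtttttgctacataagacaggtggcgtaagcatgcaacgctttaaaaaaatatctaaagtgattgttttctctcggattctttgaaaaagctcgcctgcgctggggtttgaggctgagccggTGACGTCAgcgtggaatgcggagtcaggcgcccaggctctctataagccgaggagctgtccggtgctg
These are 3 of the 12 late effectors with a window, beside 319 of the 11215 tested genes with one (2.84%). Among genes called higher at 6 h the share was 3.79%, and among genes called lower 2.81%. None of the 20 largest rises with a window held the element. The AP-1 motif TGACTCA, searched on both strands, lay in 2 of those 20 windows (10.0%), those of Mir670hg and Sult2b1, in none of the 12 late effectors and in 4.01% of tested genes. A match describes the letters in the window, and binding was not measured.

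Peptide and secretory genes overlapped with this group, and their counts stand beside 7.95% of all genes higher and 9.01% lower. Of 18 neuropeptide precursors 4 (22.2%) were higher and none lower, 1 without the second array at 6 h or the first at 3 h, 2 without the second at 3 h, and 9 with the replicate block. Beside Nppc and Cartpt these were Prok2, with 856.5 and 988.6 at 6 h, against 537.6 and 580.8 at 3 h (0.72 ± 0.17, adjusted p = 0.0121), and Sst, the somatostatin gene of a class of interneurons, with 6710 and 6934 at 6 h, against 5691 and 5719 at 3 h (0.26, adjusted p = 0.026). Without the second array at 6 h or the first at 3 h the call of Prok2 was lost (adjusted p up to 0.0781), and that of Sst without any 1 of the 4 arrays (up to 0.106). Averaging its probe sets also ended the call of Prok2 (0.0832). Of 11 granins and prohormone-processing genes 2 (18.2%) were higher, Pcsk1 and Pam. Pam, the enzyme that amidates peptide hormones, read 2475 and 2706 at 6 h, against 1496 and 1404 at 3 h (0.83 ± 0.11, adjusted p = 0.000363).

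Ionotropic glutamate receptors lay on the other side. All 12 tested subunits had negative changes, from −0.80 to −0.01 with a median of −0.20. Of these 4 (33.3%) were called lower and none higher, beside 9.01% and 7.95% of all genes. Gria3, an AMPA receptor subunit, read 271.2 and 371.2 at 6 h, against 536.1 and 606.5 at 3 h (−0.80 ± 0.12, adjusted p = 0.000998). Its arrays at 6 h lay below both at 3 h. Gria4 read 853.5 and 998.1 at 6 h, against 1308 and 1492 at 3 h (−0.55, adjusted p = 0.00443), and Gria1 read 3150 and 3136 at 6 h, against 4170 and 4017 at 3 h (−0.38, adjusted p = 0.0185). The fourth was the kainate receptor subunit Grik4 (−0.34, adjusted p = 0.0425). In a fit on the 4 arrays alone the adjusted p was 0.0516 for Gria3, 0.051 for Gria4 and 0.234 for Grik4. Gria4 lost its call without the second array at 3 h (adjusted p = 0.0512) and with its probe sets averaged (0.202), Gria1 without any 1 of the 4 arrays (up to 0.0923), and Grik4 whenever an array other than the second at 6 h was left out (up to 0.303). Against 0 h, 2 of the 12 were called lower at 3 h and 9 at 6 h, beside 19.3% and 27.4% of all genes. In the c-Fos arm 4 were lower in the interval and the median change was −0.34.

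Of 21 calcium and sodium channel genes 3 (14.3%) were lower and 2 (9.52%) higher, beside 9.01% and 7.95% of all genes, with a median change of −0.23. Against 0 h, 10 of the 21 were called lower at 6 h and 4 at 3 h, beside 27.4% and 19.3% of all genes. With the replicate block 10 were lower and 5 higher in the interval. Neither of the 2 higher genes kept its call when any 1 of the 4 arrays was left out. Cacna1c, the pore subunit of the L-type channel Cav1.2, joined Cacna1d, with 581.1 and 707.2 at 6 h, against 1109 and 1271 at 3 h (−0.83 ± 0.09, adjusted p = 0.000136). Both of these L-type pore subunits kept the call whichever of the 4 arrays was left out. Cacng2, which encodes the AMPA receptor partner stargazin, read 917.8 and 871.3 at 6 h, against 1438 and 1300 at 3 h (−0.56 ± 0.10, adjusted p = 0.00183, and 0.12 with its probe sets averaged). The rises of the beta subunits Cacnb2 (1.00) and Cacnb4 (0.31) each lost their call without any 1 of the 4 arrays (adjusted p up to 0.225 and 0.103). Of 20 voltage-gated potassium channel genes 2 (10.0%) were higher, near the 7.95% of all genes, and none lower. Their median change was 0.19, and with the block 6 were higher. Kcns2, a silent subunit that modifies Kv2 channels, read 989.4 and 992.6 at 6 h, against 401.9 and 422.9 at 3 h (1.24 ± 0.21, adjusted p = 0.00176). Of 9 GABA-A receptor subunits 1 (11.1%) was higher, beside 7.95% of all genes. This was Gabra4, with 3692 and 3386 at 6 h, against 2321 and 2272 at 3 h (0.61 ± 0.08, adjusted p = 0.000429).

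Synaptic scaffold and adhesion genes were split, with 5 of 21 (23.8%) higher and 3 (14.3%) lower, beside 7.95% and 9.01% of all genes. With 1 of the 4 arrays left out 1 to 3 were higher and 1 to 2 lower, and the lowest counts were those without the first array at 6 h or the second at 3 h. Dlg1, which encodes the scaffold SAP97 that carries AMPA receptors, read 3241 and 3925 at 6 h, against 2005 and 2273 at 3 h (0.73 ± 0.14, adjusted p = 0.00354). Of 43 cadherins and protocadherins 4 (9.30%) were higher and none lower, a share of rises near the 7.95% of all genes. Pcdh20 read 2141 and 2159 at 6 h, against 1313 and 1123 at 3 h (0.81 ± 0.10, adjusted p = 0.000244), and Pcdh17 read 7757 and 7906 at 6 h, against 5728 and 5658 at 3 h (0.46 ± 0.07, adjusted p = 0.000935). Both protocadherins, which mediate contact between neurons, were also above 0 h at 3 h. Of 22 synaptic vesicle and SNARE genes 1 was higher, Sv2c (0.88 ± 0.20, adjusted p = 0.0103), and 1 was lower, Sv2a (−0.26, adjusted p = 0.0303). Both are synaptic vesicle glycoproteins. Sv2c lost its call without the first array at 6 h or the second at 3 h (adjusted p up to 0.109), and Sv2a without any 1 of the 4 arrays (up to 0.169).

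Genes of cyclic AMP signalling, tRNA charging and glucose supply gave smaller counts. They stand beside 7.95% of all genes higher and 9.01% lower. Of 14 cyclic AMP feedback genes 4 (28.6%) were higher and 1 lower, and 1 was higher without the first array at 3 h and 2 without the first at 6 h. Crem, which also gives rise to the repressor ICER, read 5106 and 5484 at 6 h, against 3486 and 3804 at 3 h (0.52), and its call was lost without the first array at 3 h (adjusted p = 0.0582) and with its probe sets averaged (0.0691). Crtc1, a coactivator of CREB, read 581.3 and 650.9 at 6 h, against 991.4 and 929.7 at 3 h (−0.60 ± 0.09, adjusted p = 0.00074, and 0.126 with its probe sets averaged). Of 14 cytosolic tRNA synthetases 4 (28.6%) were higher and 2 (14.3%) lower. None of the 14 was called higher without the first array at 6 h or the second at 3 h, and 1 without the first at 3 h. Of the lower ones Wars read 675.8 and 718.6 at 6 h, against 1076 and 1061 at 3 h (−0.57 ± 0.07). Of 19 glucose uptake and glycolysis genes 1 was higher: Slc2a1, the glucose transporter GLUT1, read 2436 and 3228 at 6 h, against 1435 and 1602 at 3 h (0.87 ± 0.16, adjusted p = 0.00339). Txnip, which restrains glucose uptake, read 863.1 and 1111 at 6 h, against 498.6 and 607.4 at 3 h and 3154 and 3526 at 0 h. Its partial return of 0.82 ± 0.25 (adjusted p = 0.0425) was lost without any 1 of the 4 arrays (adjusted p up to 0.206). Of the 7 Txnip and arrestin-domain genes 3 (42.9%) were higher and none lower, and 1 was higher without the first array at 6 h or the second at 3 h. Arrdc3 lost its call in both of those fits (adjusted p up to 0.0854).

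**Figure D3:**
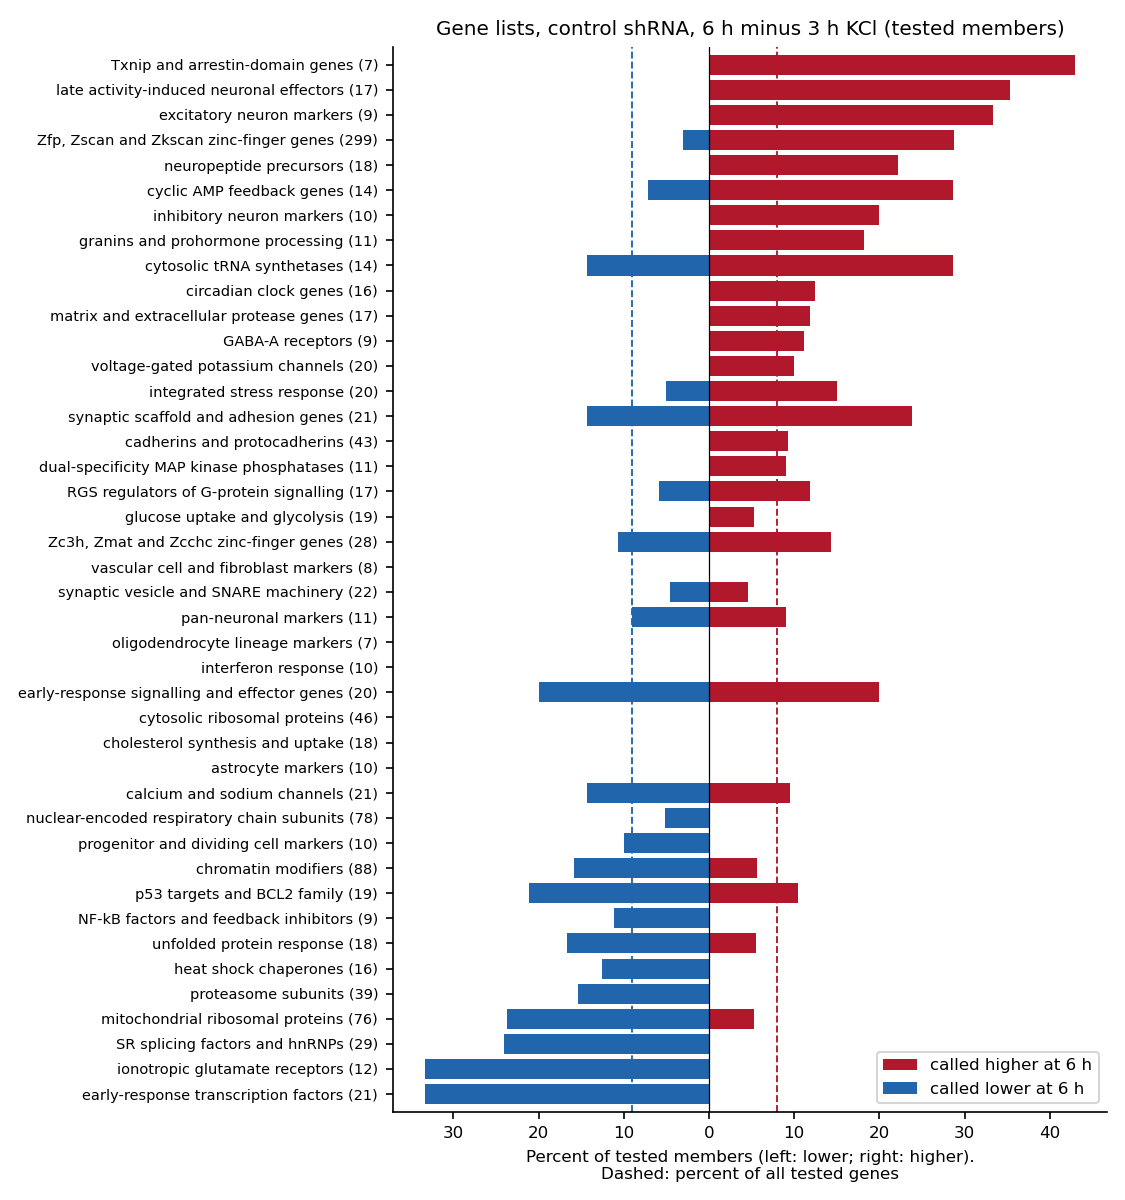
Percent of the tested members of each gene list called higher (right, red) or lower (left, blue) at 6 h than at 3 h of KCl with control shRNA, with the number tested in brackets. Dashed lines mark the percent of all tested genes, 7.95% higher and 9.01% lower. The list of microglia markers, with 2 tested members, is not drawn.

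Zinc-finger genes named Zfp, Zscan or Zkscan, most of which encode DNA-binding proteins, included many recovering genes. Of 299 tested, 86 (28.8%) were higher and 9 (3.01%) lower at 6 h than at 3 h, beside 7.95% and 9.01% of all genes. The median change was 0.21, and 75.3% of the family had a positive change, beside 48.7% of all genes tested. At 3 h 185 had been called lower and 19 higher than at 0 h, beside 19.3% and 11.0% of all genes. The family's median against 0 h was −0.16, −0.55 and −0.34 at 1, 3 and 6 h, so the return was partial. Of the 86 genes 51 were still called lower at 6 h than at 0 h. Sorted by the c-Fos arm, 165 of the family were lower at 3 h, and 70 of those were higher at 6 h in control neurons.

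Zfp507 read 779.4 and 840.8 at 6 h, against 364.1 and 429 at 3 h (1.03 ± 0.11, adjusted p = 0.000104), after 1377 and 1284 at 0 h. Zfp647 read 839.6 and 716.4 at 6 h, against 422.2 and 358.8 at 3 h (0.99 ± 0.12, adjusted p = 0.00019), after 2270 and 1970 at 0 h. Both stood between their level at 3 h and their level before KCl. Zkscan4 had been lowered strongly, with 102.4 and 114.7 at 6 h, against 29.2 and 53.7 at 3 h and 464.1 and 406.9 at 0 h (1.16 ± 0.19, adjusted p = 0.0014, and 0.0535 in a fit on the 4 arrays alone). Zfp975 was already called higher at 3 h than at 0 h and rose on, with 2496 and 2393 at 6 h, against 1095 and 959 at 3 h (1.22 ± 0.20, adjusted p = 0.00134). Against the trend, Zfp326, an RNA-splicing cofactor, read 1048 and 1085 at 6 h, against 1873 and 1917 at 3 h (−0.78 ± 0.07, adjusted p = 3.93e-05). The count for the family was 25 in a fit on the 4 arrays alone and between 41 and 54 with 1 of them left out. The 28 tested genes of the RNA-binding Zc3h, Zmat and Zcchc families had 4 (14.3%) higher and 3 (10.7%) lower, and 1 higher without the second array at 6 h or the first at 3 h.

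**Figure D4:**
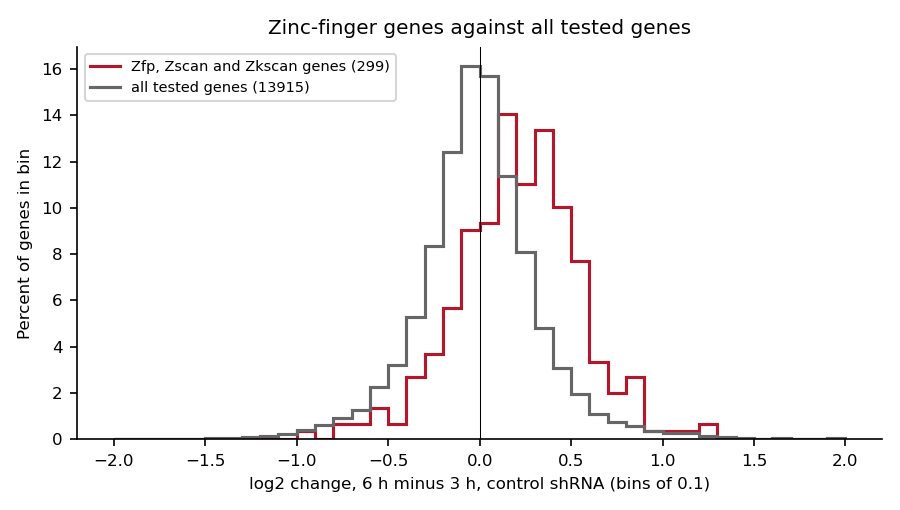
Percent of genes in each bin of log2 change (6 h minus 3 h, control shRNA, bins of 0.1) for the 299 zinc-finger genes (red) and all 13915 tested genes (grey). The red line is shifted to the right, with a median of 0.21 against −0.01.

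Of 76 mitochondrial ribosomal proteins tested, 18 (23.7%) were lower and 4 (5.26%) higher at 6 h, beside 9.01% and 7.95% of all genes. The other 54 were not called, and the median change was −0.09. Against 0 h 31 were called lower at 3 h and 47 at 6 h, beside 19.3% and 27.4% of all genes. Mrpl10 read 498.6 and 671.1 at 6 h, against 953.7 and 1135 at 3 h (−0.79 ± 0.12, adjusted p = 0.00115). Mrpl24 read 1022 and 1125 at 6 h, against 1682 and 1759 at 3 h (−0.63 ± 0.08, adjusted p = 0.000251), and Mrps17 read 2226 and 2441 at 6 h, against 3170 and 3348 at 3 h (−0.47 ± 0.06, adjusted p = 0.000254). The shifts were small and the count fell to 3 in a fit on the 4 arrays alone and to between 9 and 10 without the first array at 6 h or either array at 3 h. Mrps2, in the small subunit, went the other way, with 1112 and 1244 at 6 h, against 783.5 and 811 at 3 h (0.55 ± 0.11, adjusted p = 0.00396). Cytosolic ribosomal proteins gave 0 calls among 46 tested, with changes between −0.08 and 0.22.

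Other housekeeping groups gave small counts, which stand beside 9.01% of all genes lower and 7.95% higher. Of 29 SR splicing factors and hnRNPs 7 (24.1%) were lower and none higher, between −0.32 and −0.16, and 2 were lower without the first array at 3 h and 4 without any other. Srsf2 read 5353 and 5895 at 6 h, against 6766 and 6706 at 3 h (−0.27 ± 0.05, adjusted p = 0.00148, 0.0857 with its probe sets averaged and 0.051 in a fit on the 4 arrays alone). Of 39 proteasome subunits 6 (15.4%) were lower and none higher, and this count was 1 without the second array at 3 h, 2 without the first at 3 h and 3 without either at 6 h. Of 88 chromatin modifiers 14 (15.9%) were lower and 5 (5.68%) higher, and 5 to 9 were lower with 1 of the 4 arrays left out, with 5 without the first array at 6 h or the second at 3 h. Kat2a, a histone acetyltransferase, read 1538 and 1629 at 6 h, against 2287 and 2272 at 3 h (−0.49 ± 0.06, adjusted p = 0.000331), and Smarcal1, an annealing helicase that restarts replication forks, read 115 and 165 at 6 h, against 284.6 and 424.4 at 3 h (−1.25 ± 0.23, adjusted p = 0.00284). Of the 78 respiratory chain subunits 4 (5.13%) were lower, a share below the 9.01% of all genes. Their calls depended on single arrays, and none was made in a fit on the 4 arrays alone. Of 18 cholesterol genes none was called in either direction without the replicate block, while with it 8 were lower and 1 higher. The median change of the cholesterol list was −0.16, against −0.01 for all genes tested. Of 19 p53 target and BCL2 family genes 4 (21.1%) were lower and 2 (10.5%) higher, and without the first array at 6 h or the second at 3 h 2 were lower. At most 1 was higher with any 1 of the 4 arrays left out. Bbc3, which encodes the death-promoting protein PUMA, read 189.5 and 200.7 at 6 h, against 285.7 and 343.1 at 3 h (−0.62 ± 0.10, adjusted p = 0.00125, and 0.0626 in a fit on the 4 arrays alone). Mcl1, a survival gene of the same family, read 3958 and 4214 at 6 h, against 5224 and 5417 at 3 h (−0.38 ± 0.06, adjusted p = 0.000918).

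Markers of cell types that could share the culture were examined beside these groups, since in bulk samples fewer cells of a type and less RNA per cell cannot be told apart. No marker was called among 10 astrocyte, 7 oligodendrocyte lineage, 8 vascular and 2 microglial genes tested in the fit without the replicate block. With the block 3 of the oligodendrocyte lineage markers were called higher and 1 of the astrocyte markers lower. Of the 10 progenitor and dividing cell markers 1 was then higher and 2 were lower. The astrocyte sums were 23907 and 27582 at 6 h, against 25275 and 29323 at 3 h. The oligodendrocyte lineage sums were 11109 and 17987 at 6 h, against 10201 and 15970 at 3 h, and differed more between replicates than between times. The vascular sums were 1655 and 2330 at 6 h, against 1595 and 2494 at 3 h, and those of progenitor and dividing cells 11472 and 14346 at 6 h, against 12469 and 14080 at 3 h. Hes5, a Notch target of neural progenitors, was the 1 gene called on the last of these lists without the block. It read 500.3 and 486.6 at 6 h, against 1207 and 1032 at 3 h (−1.11 ± 0.12, adjusted p = 0.000105).

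Neuronal markers moved slightly. The excitatory sums were 36441 and 34781 at 6 h, against 32550 and 30128 at 3 h. The inhibitory sums were 26231 and 27857 at 6 h, against 23654 and 24462 at 3 h. These are sums of deposited intensities before normalisation. With 2 arrays a time, their lack of overlap is weak evidence of a shift. Of 9 excitatory markers 3 (33.3%) were higher, beside 7.95% of all genes. These were the cortical transcription factors Fezf2 (0.70), Emx1 (0.73) and Tbr1 (0.44). Their calls were lost without the first array at 6 h or the second at 3 h (adjusted p up to 0.129, 0.218 and 0.149), and Emx1's also without the second array at 6 h and with its probe sets averaged (0.251). Of 10 inhibitory markers 2 were higher, Sst and Gad2, which makes GABA (0.35, lost without the second array at 6 h or the first at 3 h, adjusted p up to 0.0797, and 0.487 with its probe sets averaged). Whether these marker shifts had a part in the gene groups above was not tested. Among pan-neuronal markers Nefm, a neurofilament subunit, was higher with 8201 and 8023 at 6 h, against 5796 and 5296 at 3 h (0.55 ± 0.10, adjusted p = 0.00241). Tubb3, a neuronal tubulin, was lower with 7096 and 7751 at 6 h, against 8894 and 9967 at 3 h (−0.33 ± 0.05, adjusted p = 0.00107).

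Called genes had longer medians than all tested genes. The median gene length in RefSeq (GRCm38.p6) was 31.3 kb for genes higher at 6 h and 30.7 kb for genes lower, against 23.5 kb for all tested genes. It was 61.9 kb for the genes that rose by a log2 change of at least 1 and 37.8 kb for those that fell as much. Still rising genes had a median of 39.1 kb, receding genes 27.6 kb, recovering genes 17.9 kb and still falling genes 28.8 kb, and genes called higher at 1 h against 0 h had 14.7 kb. These lengths are given as a description, with no test.

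The same interval was measured in neurons with c-Fos shRNA. There 1248 genes (8.97%) were higher and 1136 (8.16%) lower at 6 h than at 3 h. Of the control arm's lists, 769 genes were higher in both arms (61.6% of the c-Fos list and 69.5% of the control list), and 793 lower in both (69.8% of the c-Fos list and 63.2% of the control list). The genes called higher in control neurons had a median change of 0.46 in the c-Fos arm and 0.53 in the control arm, and those called lower −0.39 and −0.50. The arms share no arrays. Of the 25 largest rises 21, and of the 15 largest falls 11, were called in the same direction with c-Fos shRNA. Late effectors had 9 of 17 higher with c-Fos shRNA, early-response factors 10 of 21 lower, and zinc-finger genes 97 of 299 higher and 7 lower.

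A test of the difference itself, the c-Fos arm's change minus the control arm's, called 11 genes (0.0791%), 8 below zero (0.0575%) and 3 above it (0.0216%). With the replicate block 172 genes were called. Prrc1 differed in direction: it read 1023 and 1057 at 6 h, against 1537 and 1455 at 3 h, with c-Fos shRNA, and 760 and 757.3 at 6 h, against 485.5 and 534.4 at 3 h, with control shRNA (difference −1.09, adjusted p = 0.00385). It remained called whichever array was left out, yet the mean of its probe sets gave a difference of 0.07. Slitrk1, a synaptic adhesion protein that promotes synapse formation, rose in both arms and more with c-Fos shRNA. It read 2902 and 2825 at 6 h, against 1089 and 1087 at 3 h, with c-Fos shRNA, and 2035 and 2141 at 6 h, against 1395 and 1329 at 3 h, with control shRNA (difference 0.77, adjusted p = 0.00486). Its call was lost without the first control array at 3 h or the first c-Fos array at 6 h (adjusted p up to 0.0544). Calhm5, a channel-family gene, was called higher at 6 h with control shRNA and hardly moved with c-Fos shRNA. It read 30.2 and 34.8 at 6 h, against 34.3 and 30.1 at 3 h, with c-Fos shRNA. With control shRNA it read 118 and 115.2 at 6 h, against 22.3 and 34.3 at 3 h. Apart from the control arrays at 6 h, these readings were near the floor. The difference of −1.60 (adjusted p = 0.0426) was lost without any 1 of the 8 arrays (up to 0.317).

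Blnk, among the largest rises of control neurons, read 37.1 and 61.8 at 6 h, against 31.3 and 37.7 at 3 h, with c-Fos shRNA. Its change of 0.35 there was not called, and the difference between the arms of −1.57 had an adjusted p of 0.173, and 0.00803 with the replicate block. The c-Fos readings and the control readings at 3 h were low, mostly near the cut for testing. No late effector or early-response factor was among the 11 genes. With 0.0791% of all tested genes called, such short lists would rarely hold any, so this is not a result about those lists.

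**Figure D5:**
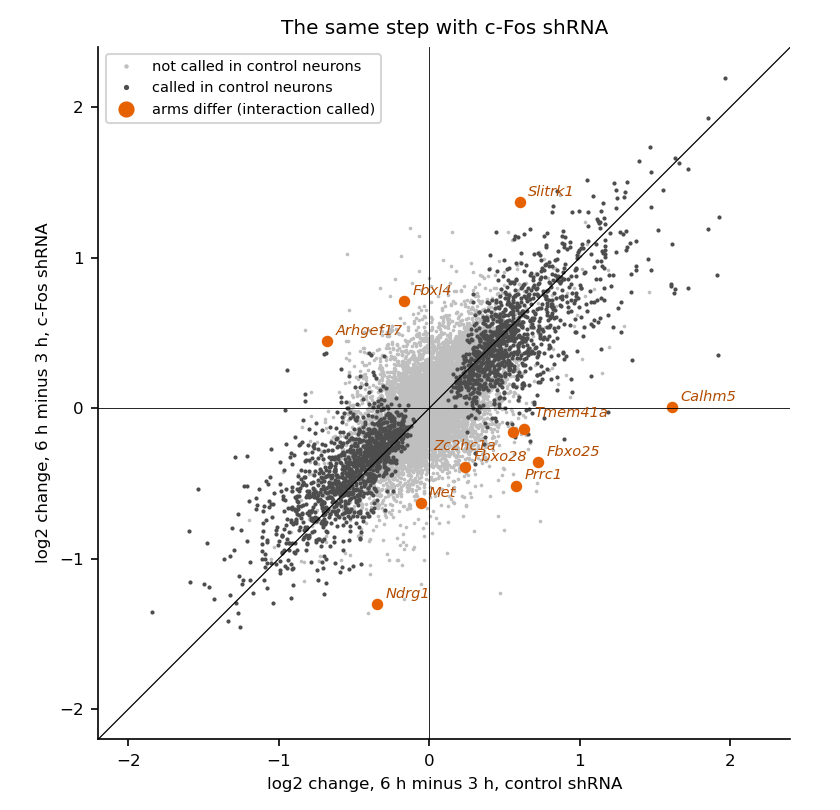
Log2 change from 3 h to 6 h of KCl with c-Fos shRNA (vertical) against control shRNA (horizontal), 1 point per tested gene; dark points were called in control neurons, orange points are the 11 genes whose change differed between the arms. Most dark points lie near the diagonal, and Calhm5, with 0.01 against 1.61, lies far below it. Its readings at these times were near the floor except in the control arrays at 6 h.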

How the data were processed

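RNA of 16 cultures was hybridised to Affymetrix mouse 430 2.0 arrays, 2 a group. The authors deposited 1 linear intensity per probe set and array. The software that summarised and scaled these values is not given in the sources used here. Intensities ran from 0.51 to 23935.63, and precision is limited by having 2 arrays a group. Of 45037 probe sets other than array controls, 34945 were paired with 1 gene by the platform annotation, 932 with several and 9160 with none, and symbols were updated through RefSeq (34741 matched). Values were quantile normalised as log2(intensity + 16). The probe set with the highest mean stood for a gene. Genes whose mean over all arrays was above the 30th percentile were tested.

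Group means of all 16 arrays were fitted with limma 3.58.1 in R 4.3.3, with moderated variances, a trend and 8 residual degrees of freedom. Benjamini-Hochberg adjustment ran over 13915 genes for each contrast. In simulated data the control means at 6 h were set to those at 3 h and 200 genes were changed. Of genes changed by a log2 of 1, 82% were called, and of those changed by a log2 of 2, 100%. There were 8 false calls among the unchanged genes. The simulated noise was independent between arrays, without the shared deviations of same-numbered arrays in the real data, so these shares need not hold for the real arrays.

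Replicate numbers were taken to pair arrays, because deviations from the group means correlated above 0.1 in 28 of 28 pairs of groups (0.36 to 0.60, and 0.60 between control 6 h and 3 h). The fit with that number as a block called more genes, and it is given for some genes and counts only. A count given without the block can therefore differ from the count with it. With the block 13 chromatin modifiers were higher and 23 lower, and 21 Zfp, Zscan and Zkscan genes were lower. Likewise 7 unfolded protein response genes were lower and 5 glucose uptake and glycolysis genes higher. Alternatives were other normalisations, pseudocounts and filters, fits on fewer arrays, the mean of all probe sets of a gene, and leaving out each array.

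The text names the 25 largest called rises and 15 largest called falls with separated arrays, the 10 largest changes in each class, the genes whose change differed between the arms, members of 43 gene lists, and Fos. The comparison and the lists were chosen with earlier results of these data known. Motifs were searched in RefSeq promoter windows of GRCm38.p6.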

Additional observations from a re-analysis of the deposited data

Results flagged for a closer look

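For 11 genes the change from 3 h to 6 h differed between the arms by limma's test of the difference itself (c-Fos shRNA change minus control shRNA change, Benjamini-Hochberg adjusted p below 0.05, 2 arrays a group), and these are given as values only.

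Calhm5 differed by −1.60, with a change of 0.01 in the c-Fos arm and 1.61 in the control arm (adjusted p = 0.0426). Prrc1 differed by −1.09, with −0.52 and 0.58 in the same order (adjusted p = 0.00385). Fbxo25, an F-box gene, differed by −1.08: it read 1526 and 1561 at 6 h, against 1964 and 1998 at 3 h, with c-Fos shRNA, and 666.5 and 856.9 at 6 h, against 417.9 and 503.8 at 3 h, with control shRNA. Ndrg1, a stress-responsive gene, differed by −0.96, since it fell by 1.30 on the log2 scale with c-Fos shRNA and by 0.35 with control shRNA.

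Tmem41a differed by −0.78 and Zc2hc1a by −0.71, and both rose with control shRNA (0.63 and 0.56), while the changes with c-Fos shRNA were −0.14 and −0.16. Fbxo28, another F-box gene, differed by −0.63, with −0.39 in the c-Fos arm and 0.24 in the control arm. Met, the hepatocyte growth factor receptor, differed by −0.57: it read 3136 and 3562 at 6 h, against 5362 and 5179 at 3 h, with c-Fos shRNA, and 3105 and 3420 at 6 h, against 3459 and 3301 at 3 h, with control shRNA.

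In the other direction Slitrk1 differed by 0.77 (1.37 in the c-Fos arm and 0.60 in the control arm). Fbxl4, a mitochondrial F-box gene, differed by 0.88 (0.71 and −0.17) and Arhgef17 by 1.12 (0.45 and −0.68). Prrc1 was called whichever of the 8 arrays was left out, and Slitrk1 in all but 2 of those fits (adjusted p up to 0.0544). Fbxo25 and Ndrg1 lost their call in 7 of them (up to 0.307 and 0.174), and the other genes in all 8 (up to 0.317). With all probe sets of a gene averaged, Arhgef17 differed by 0.005, Fbxo28 by −0.25, Met by −0.43, Ndrg1 by −0.69 and Zc2hc1a by −0.55, and none of these was called.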

How the results depend on the processing

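Directions held across the alternatives for all but 3 of the 3390 pairs of a named gene's result and an alternative. With all probe sets of a gene averaged, Mrpl15 changed by 0.008 and Zc3h4 by 0.003 between 3 h and 6 h in control neurons, and Prrc1 differed between the arms by 0.07. The cause was not tested. Of 242 named results 89 kept their side of the threshold under every alternative, and 702 of the 3390 pairs lost the call: 106 in the fit on the 4 arrays alone, 77 with averaged probe sets, and 64 to 99 with 1 control array left out. With the replicate block all 242 kept it.

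The 2360 genes called between 3 h and 6 h in control neurons became 892 on the 4 arrays alone, where fewer arrays estimate the spread, 4721 with the replicate block and 1323 to 1711 with 1 array left out. Higher genes numbered 467, 2190 and 619 to 690 in the same settings, and lower genes 425, 2531 and 647 to 1029. The 2384 genes of the c-Fos arm became 4690 with the block and 1115 to 1613 with 1 array left out. The 11 genes that differed between the arms became 2 without further normalisation, 7 with arrays shifted to 1 median, 3 without the filter on low values, 4 with averaged probe sets, 172 with the block and 1 to 4 with 1 array left out.

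Late effectors called higher were 13 with the block. Glutamate receptors called lower were 1 on the 4 arrays alone and 1 to 3 with 1 array left out, zinc-finger genes called higher 25 and 41 to 54, and mitochondrial ribosomal proteins called lower 3 and 9 to 12. Early-response factors called lower stayed at 6 to 10. The replicate block gave 703 genes still rising, 239 receding, 805 recovering and 1259 still falling. With 2 arrays a group, a gene that was not called may still have changed.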

Other observations

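Other gene lists held a few members that changed between 3 h and 6 h in control neurons, where 7.95% of all genes were higher and 9.01% lower. Dnajb1, a heat shock chaperone, read 1955 and 1999 at 6 h, against 2772 and 2917 at 3 h (−0.50 ± 0.08, limma adjusted p = 0.00126), 1 of 2 genes lower and none higher among 16 of that list. Edem1, which extracts misfolded glycoproteins from the endoplasmic reticulum, read 557.4 and 495.2 at 6 h, against 365.2 and 370.2 at 3 h (0.53 ± 0.10, limma adjusted p = 0.00324), while 3 of the 18 unfolded protein response genes (16.7%) were lower, beside 9.01% of all genes, but none was lower without the first array at 6 h or the second at 3 h, and 1 without the first at 3 h. Rgs10, a regulator of G-protein signalling, read 2416 and 2602 at 6 h, against 1625 and 1699 at 3 h (0.59 ± 0.11, limma adjusted p = 0.00244). Of 10 interferon-induced genes tested none was called in either direction by limma.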
